A study of Mus musculus with 6 samples.

Results

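The genes described here are 44 members of the cell division machinery, taken by symbol from a table of 22239 genes measured in sorted mouse lung epithelial cells. They were listed by name, not by their values. All 44 had a row in the table, and 43 passed the filter for testing, a normalised count of at least 10 in at least 2 of the 6 libraries; only Ccnb1 did not. RNA was sequenced in bulk from 3 populations with 2 libraries each, all from mice aged 8 weeks and all sorted by flow cytometry on endogenous reporters from lungs depleted of CD31 and CD45 positive cells. Bronchioalveolar stem cells (BASC) were CCSP-mCherry+/SPC-YFP+, that is, positive for the reporters of both the Club cell secretory protein and surfactant protein C. Alveolar type 2 cells (AT2), which make surfactant, were SPC-YFP+, while Club cells, which line the bronchioles and secrete, were CCSP-mCherry+. No label gives the strain, or says whether a library came from its own animal or from a pool. The p-values therefore cover the spread among these libraries, which may be technical. Each library was made from 100 pg of total RNA.

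A dividing cell passes from G1 into DNA synthesis (S phase) and then into mitosis. D-type cyclins with Cdk4 and Cdk6, and E-type cyclins with Cdk2, phosphorylate the pocket proteins of the retinoblastoma family, which releases E2F transcription factors; CDK inhibitors such as p21 and p27 hold this step back. E2F then drives genes of DNA replication, and genes of mitosis come on later in G2. In the adult lung at rest, epithelial cells divide rarely, and both AT2 and Club cells are known to re-enter the cycle after injury.

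Estimated reads over the genes in the table ran from 10121129 to 18203252 per library, and a value of 0 left room for up to 3 reads, worth 2.29 to 4.02 normalised counts depending on the library (counting error only). Markers separated the populations by label. The AT2 and Club lists include Sftpc and Scgb1a1, the genes of the sort reporters, so their sums are not independent of the sort. The 8 AT2 markers summed to between 972281 and 1141388 for BASC and AT2 and to 89390 and 108869 for Club cells, and the 8 Club markers summed to 1188900 and 1174866 for Club cells, 99797 and 123001 for BASC and 19068 and 21986 for AT2. Of markers of other cells, all 8 ciliated cell markers were in the table and summed to 6288 and 5979 in the Club libraries, 525 and 390 for BASC and 304 and 149 for AT2. All 6 markers of alveolar type 1 cells were in the table. They summed to 11745 and 11598 for BASC, 11373 and 13763 for AT2 and 4482 and 4580 for Club cells. Ager alone had 8336 and 8746, 8105 and 9791, and 1390 and 1762 in the same order, while Hopx and Pdpn were highest in Club cells. Of 8 immune markers, 5, including Ptprc, had no row, and the other three summed to between 126 and 355 in every library. Of 6 endothelial markers, 3 had no row and the rest summed to between 9 and 60. The 5 of 6 mesenchymal markers with a row summed to 240 in AT2 replicate 1 and to between 10 and 94 in the other libraries. The 2 of 4 basal cell markers with a row summed to between 0 and 43.

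Most of the G1 machinery was present in all 3 populations, while the median mitotic gene was low. To rank genes by level, normalised counts were taken per kb of exon (union of GENCODE M21 exons); values per library and their sums are not corrected for length. On that scale Ccnd1 was the highest member, with a mean of 573 per kb over the 6 libraries, above 96.5% of 14852 protein-coding genes. E2f4, at 179.7 per kb, Cdkn1b, at 173.0, Pcna, at 162, and Cdk4, at 138, followed. Among the 15 mitotic members, the highest was Bub1 at 29.1 per kb and the lowest was Ccnb1 at 0.87, above only 4.06% of coding genes. The median mitotic member lay above 18% of coding genes and the median of the other 29 members above 50.1%. Of the 15 mitotic members, 13 were listed at 0 in at least 1 library, against 3 of the other 29. In bulk RNA, fewer cells in the cycle and less RNA per cell cannot be told apart.

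**Figure D1:**
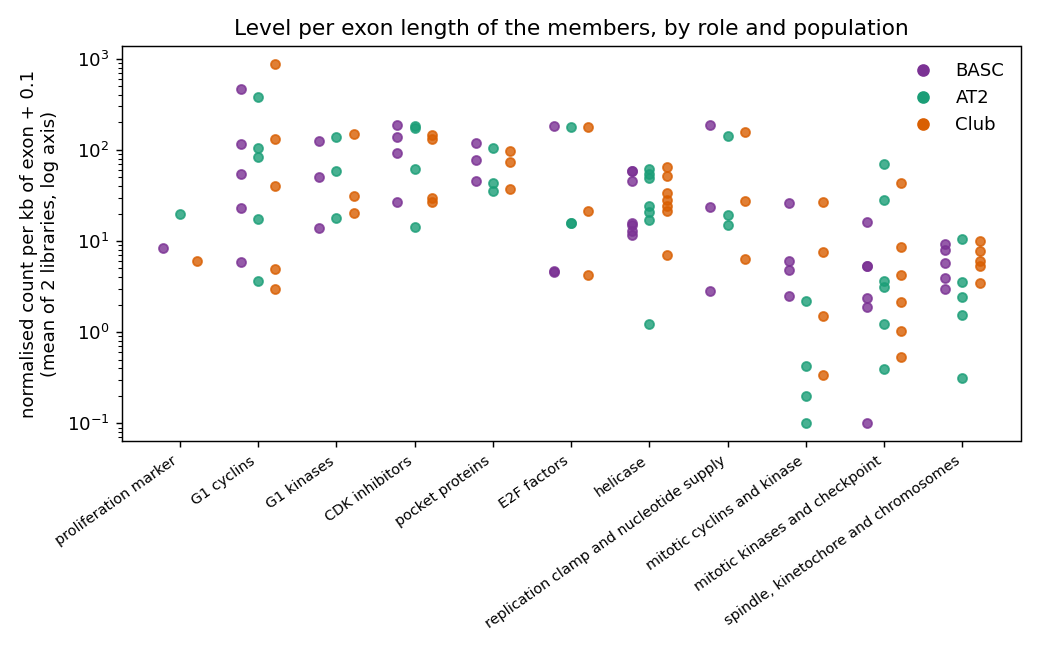
Level of each of the 44 members per kb of exon plus 0.1 (log axis), by role; each point is the mean of the 2 libraries of a population. The G1 cyclins, kinases, inhibitors and pocket proteins mostly lie above the mitotic genes, with the E-type cyclins at the low end of the G1 cyclins. The lowest points include the AT2 levels of Ccnb1, Ccnb2 and Cdk1.

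Differences between libraries of the same population were wide for the mitotic genes. The median absolute log2 difference between the replicates of a population was 1.02, 1.58 and 1.31 for the 15 mitotic members in BASC, AT2 and Club cells, and 0.47, 0.43 and 0.39 for the other 29. Differences between populations were tested on all genes together, with limma on log2(normalised count + 1), and a gene with a Benjamini-Hochberg adjusted p under 0.05 over the 17721 genes tested counted as called. The comparisons share libraries, so calls in one are not independent of calls in another.

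**Figure D2:**
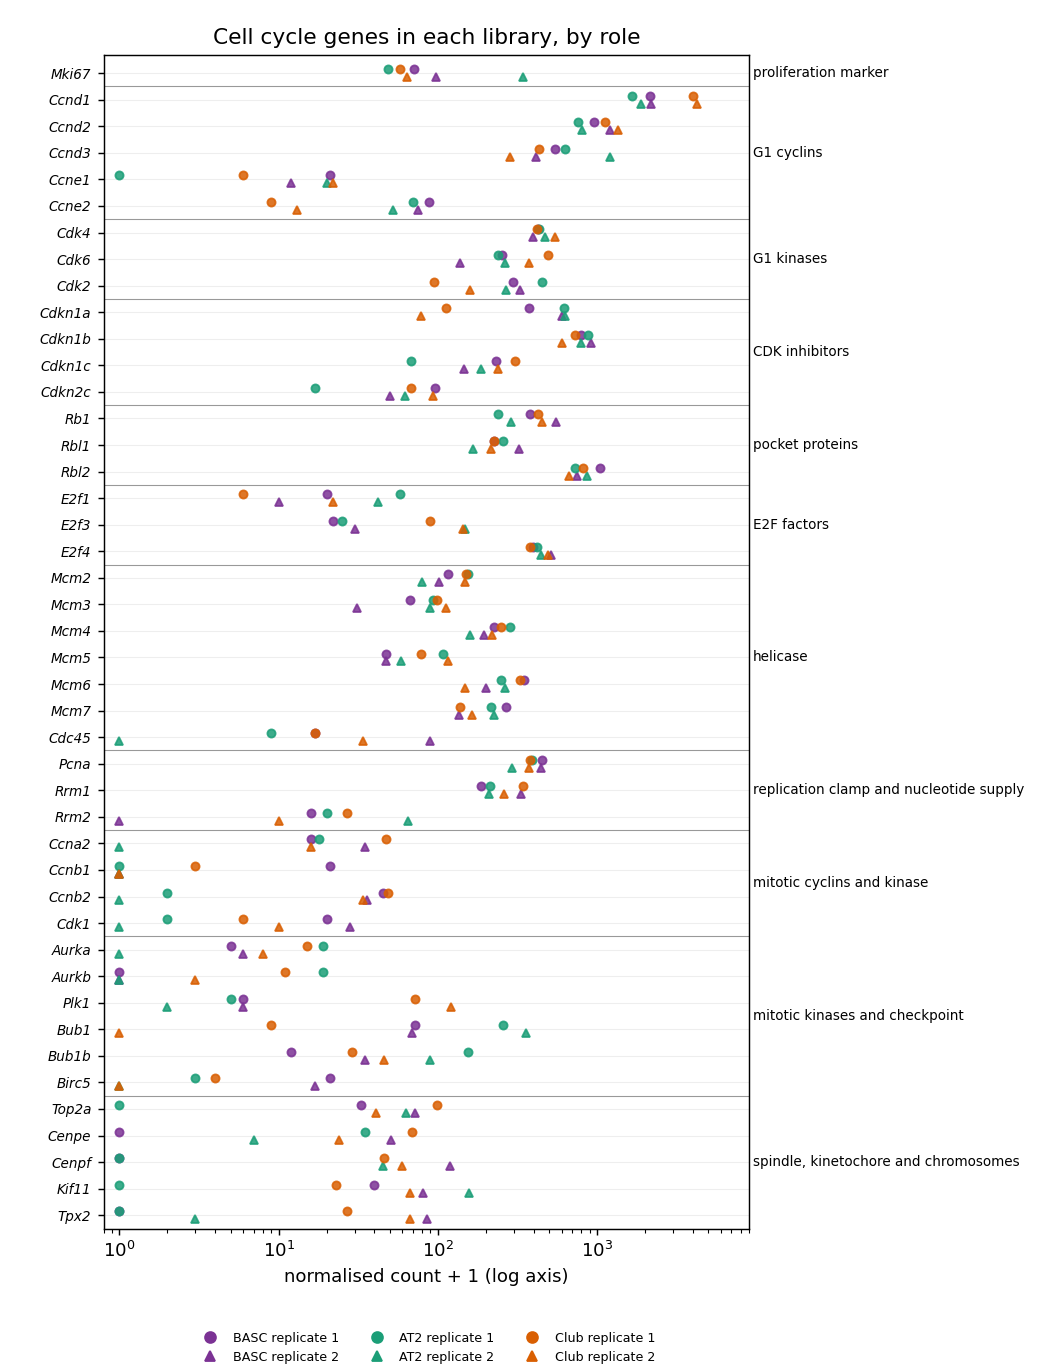
Normalised count plus 1 (log axis) of the 44 members in each of the 6 libraries, grouped by role; points at 1 are listed at 0. Ccnd1 is the highest member, and the 15 mitotic members at the bottom hold most of the zeros.

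BASC and AT2 were compared to ask whether cells with both reporters differ from AT2 cells in division genes. Limma called none of the 43 members, where 0.632% of all genes were called (0.553% higher and 0.079% lower in BASC). At an unadjusted p under 0.05 there were 6 higher and 2 lower in BASC, or 18.6% of the members against 13.2% of all genes (7.09% higher and 6.09% lower). The libraries of the populations did not overlap for 10 members higher and 9 lower in BASC, against 18.3% and 18.9% of all genes. The 6 were the D-type cyclin Ccnd2, Rb1, the replication helicase factor Cdc45, the mitotic pair Ccnb2 and Cdk1, and Birc5, and the 2 lower were Ccnd3 and Bub1b. The median log2 difference of the members was 0.16, and that of all genes was 0.00.

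BASC and Club cells were compared in the same way. Bub1 and Cdkn1a were called higher in BASC and Ccnd1 lower, 2 and 1 of 43 members, and 40 were not called. That is 6.98% of the members, against 11.2% of all genes (5.77% higher and 5.42% lower). At an unadjusted p under 0.05 there were 5 higher and 3 lower, or 18.6% against 24.6% of all genes (11.3% higher and 13.3% lower). The libraries did not overlap for 9 members higher and 10 lower in BASC, against 23.9% and 30.1% of all genes. The median log2 difference was -0.16 for the members and -0.10 for all genes.

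AT2 and Club cells differed in the most members. Bub1, Ccnd3, Cdk2 and Cdkn1a were called higher in AT2, Ccnb2, Ccnd1 and Plk1 were called lower, and 36 of 43 were not called. The share called, 16.3%, was near the 18.1% of all genes (8.42% higher and 9.71% lower), so the number of calls does not set these genes apart from others. At an unadjusted p under 0.05 there were 5 in each direction, or 23.3% against 30.5% of all genes (13.9% higher and 16.6% lower). The libraries did not overlap for 9 members higher and 14 lower in AT2, against 26.0% and 32.0% of all genes. The median log2 difference was -0.40 for the members and -0.10 for all genes. Of the 43 differences 29 were negative, against 18 for BASC against AT2 and 23 for BASC against Club cells. The 29 include all 3 mitotic cyclin and kinase genes tested and all 5 spindle, kinetochore and chromosome genes. Of these 5, 4 were at 0 in AT2 replicate 1, and none had an unadjusted limma p under 0.05. For Kif11 the negative sign depends on the log scale. It had 0 and 156 for AT2 and 22 and 66 for Club cells, and its AT2 mean was 1.77-fold that of Club cells. The share of negative differences over all genes was not computed, and the median of all genes was also negative. The counts of negative differences therefore do not set the members apart from other genes. In all, 7 members were called in at least 1 comparison.

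**Figure D3:**
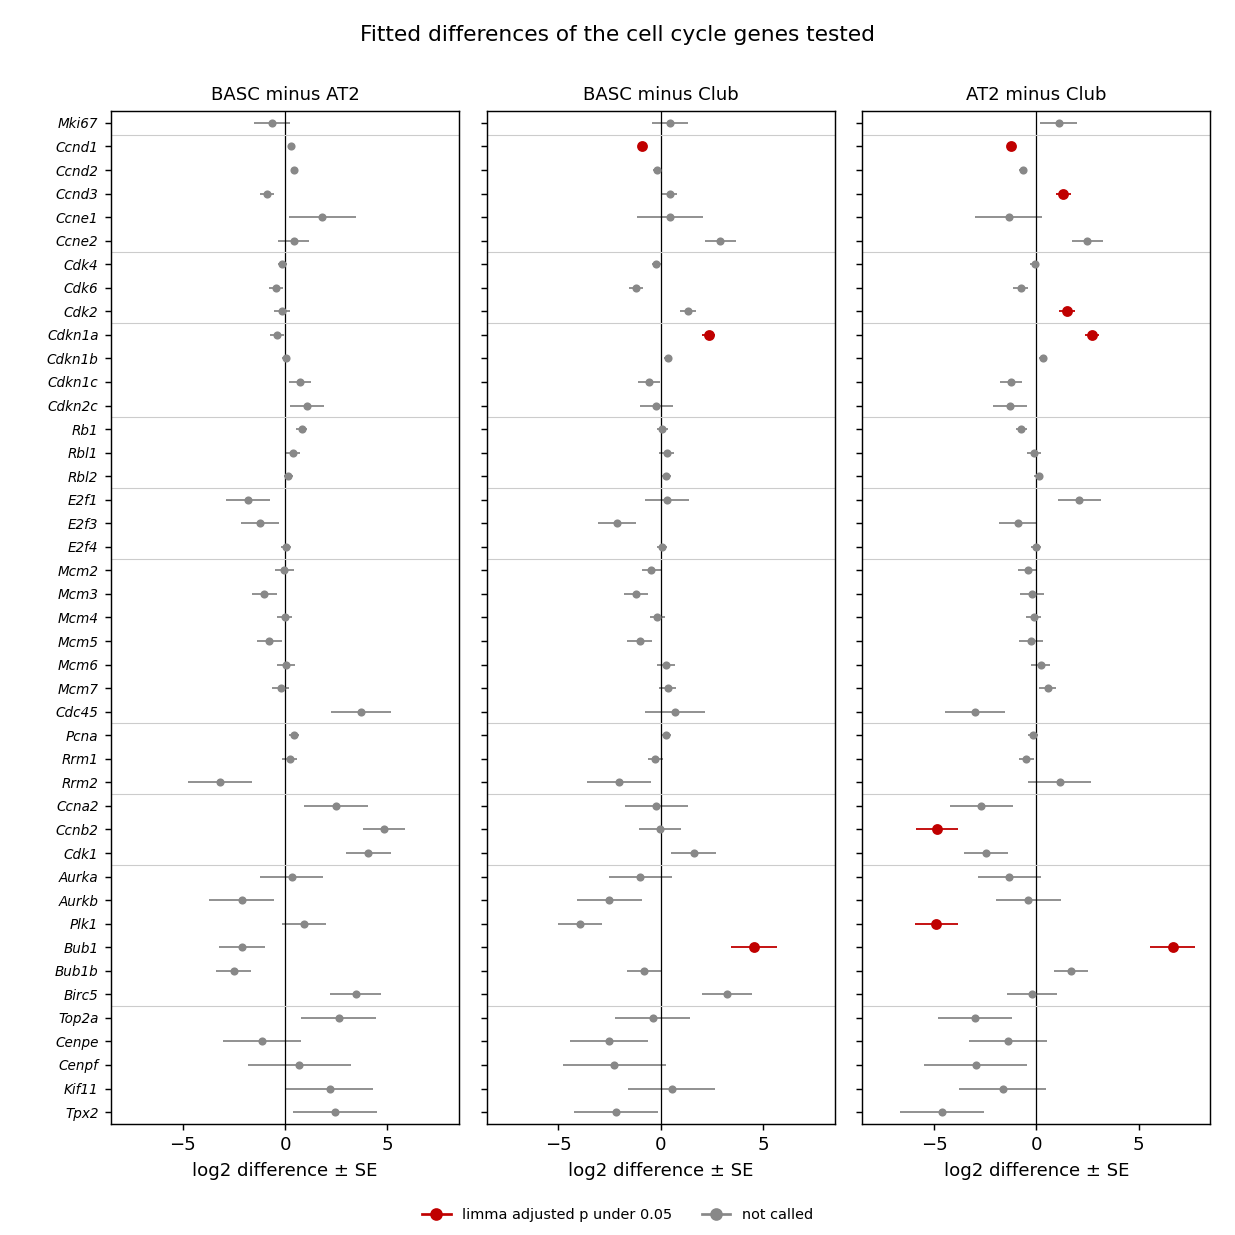
Fitted log2 difference of each of the 43 members tested, with its SE, in the 3 comparisons; red points have a limma adjusted p under 0.05. No point is red for BASC minus AT2, 3 are red for BASC minus Club and 7 for AT2 minus Club, and the SE widens toward the mitotic genes at the bottom.

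Among the cyclins of G1, Ccnd1, which partners Cdk4 and Cdk6 and is a target of mitogen signalling, was higher in Club cells. It had normalised counts of 4014 and 4256 for Club cells, 2161 and 2180 for BASC, and 1661 and 1904 for AT2. No library of Club cells overlapped with those of the other populations, and both BASC libraries lay above both AT2 libraries. The level in Club cells was 2.32-fold that in AT2 (AT2 minus Club log2 difference -1.22 ± 0.13, SE, limma adjusted p = 0.000765) and 1.91-fold that in BASC (log2 difference -0.93 ± 0.13, adjusted p = 0.00432). Both calls were kept in every fit that left out 1 library. The BASC against Club call was lost in a fit without a mean trend (adjusted p = 0.115). Ccnd1 (ENSMUSG00000070348) lies at GRCm38 chr7:144929931-144939869 on the minus strand. LTO1, on the opposite strand, covers 23.4% of the exon length of Ccnd1 and had at most 220 normalised counts in any library.

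Ccnd2 and Ccnd3, the other D-type cyclins, had patterns of their own. Ccnd2 had 958 and 1201 for BASC, 764 and 804 for AT2, and 1115 and 1364 for Club cells. The Club and BASC libraries lay above the AT2 libraries, but neither difference was called (limma adjusted p = 0.0511 for AT2 against Club and 0.363 for BASC against AT2). AT2 against Club passed in 6 of 16 alternatives, none of which left out a library. Ccnd3 had 543 and 412 for BASC, 632 and 1208 for AT2, and 429 and 283 for Club cells. Both AT2 libraries lay above the rest, replicate 2 by far and replicate 1 close to BASC replicate 1. The AT2 level was 2.58-fold that of Club cells (log2 difference 1.32 ± 0.36, limma adjusted p = 0.0446). That call was lost in 10 of 16 alternatives, among them the fits without AT2 replicate 2 (log2 difference 0.86, adjusted p = 0.187), Club replicate 2 (0.196), BASC replicate 1 (0.0860) or BASC replicate 2 (0.0849), with a block for replicate number (0.0522) and without a mean trend (0.165). Per kb of exon, the order in AT2 was Ccnd1 at 379, Ccnd3 at 105 and Ccnd2 at 83.3; in Club cells Ccnd2, at 132, stood above Ccnd3, at 40.6.

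The E-type cyclins act later in G1, with Cdk2, and were low. Ccne2 had 87 and 74 for BASC, 69 and 51 for AT2, and 8 and 12 for Club cells. Both BASC and AT2 lay clear of Club cells, yet neither difference was called (limma adjusted p = 0.0521 and 0.0646). They passed in 5 and 3 of the 16 alternatives, none of which left out a library. Ints8, a gene on the opposite strand, shares 17.4% of the exon length of Ccne2 and had 447 to 738 normalised counts across the libraries. The strand setting of the counting is not known, so reads of the 2 genes cannot be told apart with certainty. Ccne1 ran from 0 to 21 and overlapped between all populations.

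Of the G1 kinases, Cdk4 was flat, between 397 and 545 in all 6 libraries. Tspan31, on the opposite strand, shares 19.7% of the exon length of Cdk4 and had 126 to 278 normalised counts, so some reads may be shared. Cdk2, the partner of cyclin E and cyclin A, had 295 and 328 for BASC, 454 and 267 for AT2, and 94 and 158 for Club cells. Club cells were below every BASC and AT2 library. AT2 had 2.86-fold the Club level (log2 difference 1.51 ± 0.39, limma adjusted p = 0.0378), and the 2.47-fold difference between BASC and Club cells was not called (adjusted p = 0.0760). The AT2 call was lost in 6 of 16 alternatives, without AT2 replicate 1 (log2 difference 1.13, adjusted p = 0.164), Club replicate 1 (0.215), BASC replicate 1 (0.0739) or BASC replicate 2 (0.0741), without a mean trend (0.111) and with only the 2 groups fitted (0.0760). Cdk6 pointed the other way, with 492 and 372 for Club cells, 251 and 136 for BASC and 239 and 265 for AT2, and was not called (adjusted p = 0.0818 for BASC against Club).

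Among CDK inhibitors, Cdkn1a, which encodes p21 and is a target of p53, was low in Club cells. It had 375 and 605 for BASC, 621 and 630 for AT2, and 112 and 78 for Club cells. All 4 libraries of BASC and AT2 lay above both Club libraries. The level was 5.16-fold higher in BASC than in Club cells (log2 difference 2.34 ± 0.33, limma adjusted p = 0.00521) and 6.58-fold higher in AT2 (2.73 ± 0.33, adjusted p = 0.00161). Both calls were kept in every alternative fit. The difference between BASC and AT2 was not called (log2 difference -0.39 ± 0.33, adjusted p = 0.673). Cdkn1a (ENSMUSG00000023067) lies at chr17:29090979-29100722 on the plus strand.

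The other inhibitors were not called. Cdkn1b, encoding p27, had the highest mean of the 4 inhibitors, with 797 and 914 for BASC, 883 and 796 for AT2 and 729 and 605 for Club cells. Cdkn1c, encoding p57, had 303 and 239 for Club cells, 232 and 145 for BASC, and 67 and 186 for AT2. Cdkn2c, encoding p18, ran from 16 to 95.

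The pocket proteins restrain E2F. Rbl2, or p130, known for its role in resting cells, was the highest of them, with 1042 and 751 for BASC, 730 and 864 for AT2 and 817 and 666 for Club cells, and its populations overlapped. Rb1 had 380 and 552 for BASC, 238 and 288 for AT2, and 426 and 450 for Club cells. AT2 libraries were the lowest, without a call (limma adjusted p = 0.264 for BASC against AT2 and 0.109 for AT2 against Club). Rbl1, or p107, lay between 165 and 321. Of the E2F genes, E2f4, which works mainly as a repressor with p130, was level at 379 to 510 in every library. E2f1, an activator, was low, with 57 and 41 for AT2, 19 and 9 for BASC and 5 and 21 for Club cells. E2f3 had 147 in AT2 replicate 2 but 24 in AT2 replicate 1, against 21 and 29 for BASC and 89 and 143 for Club cells.

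None of the 10 replication genes was called in any comparison. The 6 subunits of the MCM helicase, which unwinds DNA at origins, ran from 30 to 347, and none reached an unadjusted limma p under 0.05. Mcm4 was the highest per kb of exon, at 61.7, with 225 and 193 for BASC, 283 and 159 for AT2 and 250 and 218 for Club cells. Mcm6, at 54.8 per kb, had 347 and 199 for BASC, 247 and 264 for AT2 and 330 and 147 for Club cells. Mcm2 had 115 and 101 for BASC, 155 and 79 for AT2 and 150 and 147 for Club cells. Mcm3, at 66 and 30, and Mcm5, at 46 and 46, were lower in BASC than in the other populations without overlap. In the other libraries Mcm3 ran from 89 to 111 and Mcm5 from 58 to 115. Of the 7 helicase genes, 2 were lower in BASC than in AT2 without overlap and 3 lower than in Club cells. The shares of all genes were 18.9% and 30.1%. Cdc45, which joins the helicase only when replication fires, had 16 and 89 for BASC, 8 and 0 for AT2 and 16 and 33 for Club cells.

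Pcna, the sliding clamp of DNA polymerase that also serves repair, had 454 and 447 for BASC, 390 and 290 for AT2 and 378 and 371 for Club cells. BASC lay above both other populations without overlap, by 1.33-fold over AT2 and 1.20-fold over Club cells, and neither difference was called (limma adjusted p = 0.526 and 0.572). Rrm2, the subunit of ribonucleotide reductase that follows S phase, was sparse, with 15 and 0 for BASC, 19 and 64 for AT2 and 26 and 9 for Club cells. Rrm1, its stable partner, had 185 to 343 in every library. The proliferation marker Mki67 had 70 and 96 for BASC, 48 and 344 for AT2 and 57 and 63 for Club cells. AT2 replicate 2 stood far above every other library and AT2 replicate 1 below them all. Mki67 was not called in any comparison (lowest limma adjusted p = 0.482). The fit without AT2 replicate 1, which kept only AT2 replicate 2, called it higher in AT2 than in Club cells.

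Of the 15 mitotic members, Bub1, Plk1 and Ccnb2 were called, each with a pattern of its own. Bub1 is a kinase of the spindle checkpoint, Plk1 the polo kinase of mitotic entry and exit, and Ccnb2 a B-type cyclin that activates Cdk1. The promoter windows of these genes are shown because their levels pointed in different directions although genes of this class are known to share promoter elements, and that of Cdk2, a G1/S kinase that was also called, is shown beside them. Windows run from 250 bases before to 50 after the start site (RefSeq, GRCm38.p6), 5′ to 3′ on the gene's strand. Capitals mark matches on either strand to the cell cycle homology region (CHR), spelled TTTGAA or else as the variant TTCGAA, to the NF-Y box CCAAT, or to an E2F core. The E2F core was searched as TTCCCGC and in 3 further spellings, the first being TTGGCGC, the next being TTCGCGC and the last being TTGCCGC. No matches overlap in these windows.
Bub1, chr2:127831810-127832109, minus strand: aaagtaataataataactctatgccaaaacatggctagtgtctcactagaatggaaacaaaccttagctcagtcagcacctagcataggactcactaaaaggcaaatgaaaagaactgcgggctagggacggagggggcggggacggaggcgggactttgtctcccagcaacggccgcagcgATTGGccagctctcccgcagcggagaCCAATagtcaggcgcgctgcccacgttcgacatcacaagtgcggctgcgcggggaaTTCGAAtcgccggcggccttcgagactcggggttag
Plk1, chr7:122159185-122159484, plus strand: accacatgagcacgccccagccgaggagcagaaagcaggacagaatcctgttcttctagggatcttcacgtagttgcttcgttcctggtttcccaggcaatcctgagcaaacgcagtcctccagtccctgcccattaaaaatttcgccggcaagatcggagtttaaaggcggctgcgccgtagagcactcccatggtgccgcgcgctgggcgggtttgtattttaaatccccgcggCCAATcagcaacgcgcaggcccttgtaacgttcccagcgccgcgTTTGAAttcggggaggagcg
Ccnb2, chr9:70421505-70421804, minus strand: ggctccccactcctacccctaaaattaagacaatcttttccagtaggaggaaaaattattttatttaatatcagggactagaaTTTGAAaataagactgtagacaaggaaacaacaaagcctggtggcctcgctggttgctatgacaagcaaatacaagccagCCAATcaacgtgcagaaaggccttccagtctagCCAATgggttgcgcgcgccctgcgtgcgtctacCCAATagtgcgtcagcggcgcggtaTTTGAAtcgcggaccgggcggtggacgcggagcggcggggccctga
Cdk2, chr10:128705002-128705301, minus strand: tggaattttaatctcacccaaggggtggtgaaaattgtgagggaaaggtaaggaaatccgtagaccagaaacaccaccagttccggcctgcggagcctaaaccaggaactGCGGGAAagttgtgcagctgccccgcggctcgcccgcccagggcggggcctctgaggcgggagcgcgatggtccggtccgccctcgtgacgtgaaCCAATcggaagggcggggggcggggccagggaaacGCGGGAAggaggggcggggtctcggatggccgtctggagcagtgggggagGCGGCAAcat

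With the start site as base 1, the CHR match began at base 15 in Bub1, base 31 in Plk1 and base 5 in Ccnb2, downstream of CCAAT matches in each, and Ccnb2 held a further CHR match upstream. Cdk2 held no CHR match and 3 E2F cores. Of the other called members, Cdkn1a and Ccnd3 held no CHR match and no E2F core in any of their windows, and Ccnd1 had no window. Of the 44 members, 34 had a window in the table used. A CHR match stood in 9 of 12 mitotic members and 6 of the 22 others, against 21.7% of 27025 genes with a window. CCAAT stood in 11 of 12 and 15 of 22, against 41.1%. An E2F core stood in 2 of 12 and 11 of 22, against 10.9%. A match is a description of letters and does not show that a factor binds there.

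Bub1 was high in AT2. It had 256 and 358 for AT2, 71 and 68 for BASC, and 8 and 0 for Club cells. The populations did not overlap, and BASC lay between AT2 and Club cells. The level was 76.8-fold higher in AT2 than in Club cells (log2 difference 6.66 ± 1.11, limma adjusted p = 0.00655) and 17.4-fold higher in BASC than in Club cells (4.55 ± 1.11, adjusted p = 0.0416). The AT2 call was lost only without AT2 replicate 2 (log2 difference 6.42, adjusted p = 0.0550). The BASC call was lost in 8 of 16 alternatives. These were a pseudocount of 0.5 (adjusted p = 0.0606), no mean trend (0.111), only the 2 groups fitted (0.0840), and the fits without any single library other than Club replicate 1, with adjusted p from 0.0719 without Club replicate 2 to 0.156 without BASC replicate 2, and the log2 difference between BASC and Club cells ran from 2.97 without Club replicate 2 to 6.14 without Club replicate 1 (adjusted p = 0.00533). The AT2 minus Club difference in these fits was 5.08 and 8.25, and it depends on the pseudocount (7.20 with 0.5 and 5.26 with 5). The 4.42-fold difference between AT2 and BASC was not called (adjusted p = 0.485). Bub1 (ENSMUSG00000027379) lies at chr2:127801122-127831865 on the minus strand.

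Bub1b, which encodes the checkpoint protein BubR1, also had its highest values in AT2, 154 and 88, against 11 and 34 for BASC and 28 and 45 for Club cells. Its AT2 libraries did not overlap with the others, and it was not called (limma adjusted p = 0.234 against Club cells and 0.262 for BASC against AT2). Together Bub1 and Bub1b made up 81.2% and 62.2% of the summed normalised counts of the 15 mitotic members in the AT2 libraries, 29.3% and 16.2% in BASC and 7.29% and 9.28% in Club cells. Without this pair, which was set apart after its values were seen, the other 13 summed to 95 and 271 for AT2, 198 and 526 for BASC and 458 and 440 for Club cells. The BASC range spans the Club values, and the highest AT2 sum lay above the lowest BASC sum.

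**Figure D4:**
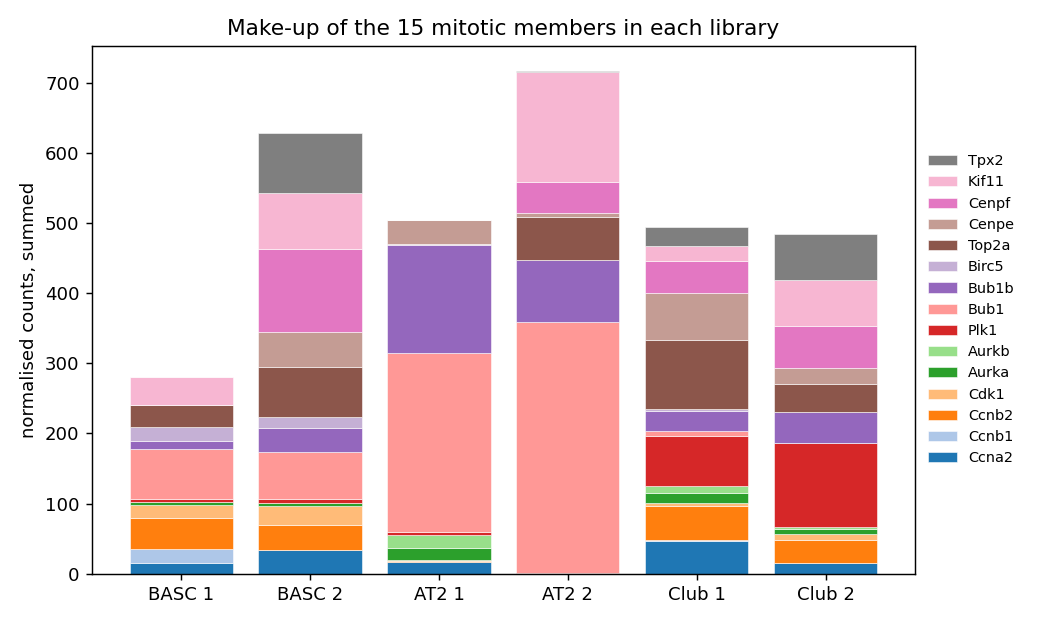
Summed normalised counts of the 15 mitotic members in each library, stacked by gene. Bub1 and Bub1b fill most of both AT2 bars, Plk1 is wide only in the Club bars, and the totals run from 280 in BASC replicate 1 to 717 in AT2 replicate 2.

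Plk1 was high in Club cells. It had 71 and 120 for Club cells, 5 and 5 for BASC, and 4 and 1 for AT2. Club cells lay above all other libraries. The Club level was 38.2-fold that of AT2 (AT2 minus Club log2 difference -4.88 ± 1.07, limma adjusted p = 0.0203) and 19.1-fold that of BASC, a difference that was not called (-3.96 ± 1.07, adjusted p = 0.0579) but passed in 6 of the 14 alternatives that gave a value, among them the fit without AT2 replicate 2. The AT2 minus Club difference depends on the pseudocount (-5.16 with 0.5 and -3.73 with 5). The AT2 call was lost without AT2 replicate 2 (log2 difference -4.22, adjusted p = 0.0654), and it could not be tested without either Club library, since only 1 library then reached 10. Plk1 (ENSMUSG00000030867) lies at chr7:122159439-122169873 on the plus strand. A short transcript model on the opposite strand, Gm44985, covers 7.1% of the exon length of Plk1 and was itself at 81 and 34 for Club cells and at 0 elsewhere. The strand setting of the counting is not given in the sources used here, so reads of the pair cannot be told apart with certainty. The ciliated cell markers also had their highest sums in the Club libraries (6288 and 5979, against at most 525 in the others). Of the 8 markers, 3 and 5 were at 0 in the AT2 libraries and 2 and 0 in the BASC libraries. Others were present there, with Foxj1 at 96 and 40 and Dynlrb2 at 93 and 97 for AT2. For Club cells these 2 had 795 and 825, and 134 and 158. The part of the ciliated cell markers in the Plk1 result was not tested.

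Ccnb2 was near 0 in AT2. It had 1 and 0 for AT2, 44 and 35 for BASC, and 48 and 33 for Club cells. BASC and Club cells overlapped with each other, and both lay clear of AT2. The ciliated cell markers summed to 525 and 390 for BASC, 304 and 149 for AT2 and 6288 and 5979 for Club cells, and 4 of the 8 were higher in BASC than in AT2 without overlap; their part in the result was not tested. The AT2 minus Club difference was called (log2 difference -4.85 ± 1.02, limma adjusted p = 0.0178), and its size depends on the pseudocount because AT2 held about 1 read. The call was lost without AT2 replicate 2 (adjusted p = 0.0505), Club replicate 1 (0.213) or Club replicate 2 (0.148). BASC against AT2 was not called (4.83 ± 1.02, adjusted p = 0.113), and in a fit without a mean trend it was the 1 member called in that comparison. Ccnb2 (ENSMUSG00000032218) lies at chr9:70407692-70421547 on the minus strand.

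**Figure D5:**
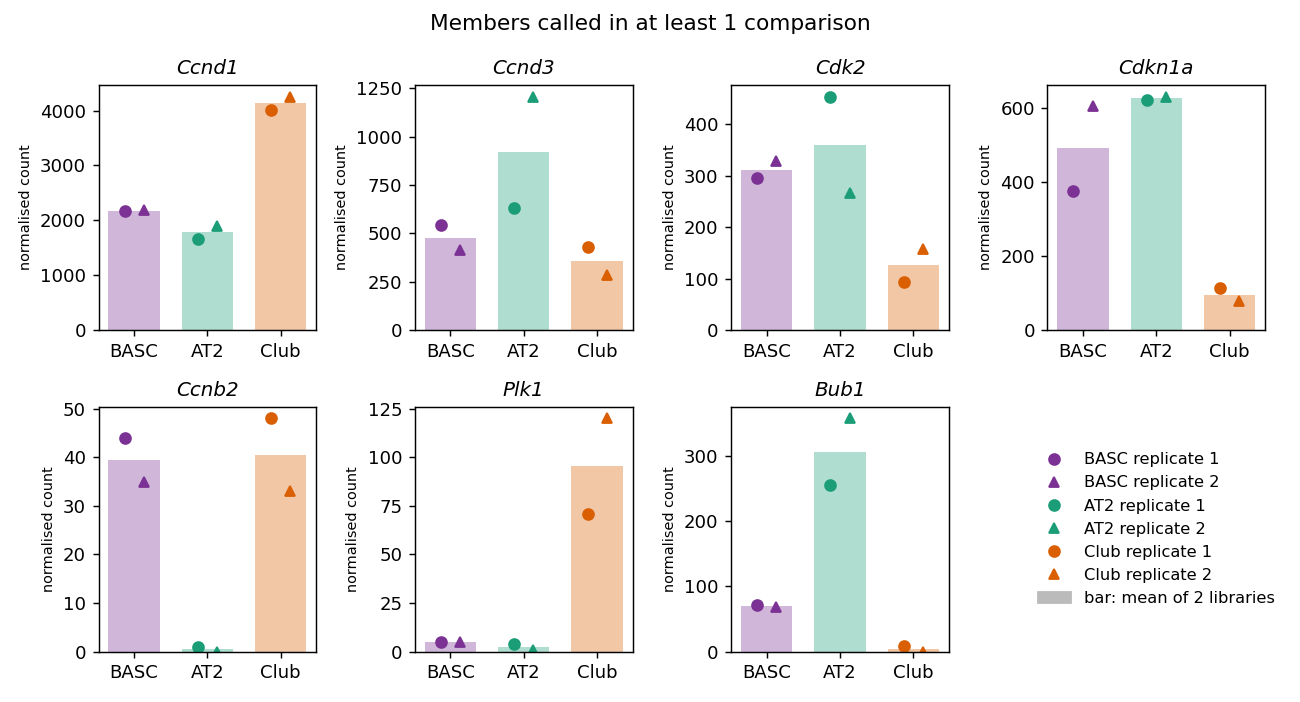
Normalised counts of the 7 members called in at least 1 comparison; points are libraries, bars are means of 2, and each axis starts at 0. Ccnd1 and Plk1 stand highest in Club cells, Cdkn1a and Cdk2 lowest there, Bub1 and Ccnd3 highest in AT2, and Ccnb2 is near 0 in AT2.

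The other cyclins and the kinase of mitosis were sparse. Cdk1, the mitotic kinase, had 19 and 27 for BASC, 1 and 0 for AT2 and 5 and 9 for Club cells, without overlap between any populations and without a call (lowest limma adjusted p = 0.175). Ccna2, the S and G2 cyclin, had 15 and 34 for BASC, 17 and 0 for AT2 and 46 and 15 for Club cells. Exosc9, on the opposite strand, shares 12.5% of the exon length of Ccna2 and had 26 to 177 normalised counts. With the strand setting unknown, reads of these 2 genes cannot be told apart with certainty. Ccnb1 had 20 in BASC replicate 1, 2 in Club replicate 1 and 0 elsewhere. All 4 genes of this role were at 0 in AT2 replicate 2, the library with the highest Mki67.

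The aurora kinases, which order spindle assembly and cytokinesis, did not exceed 18 in any library. Birc5, or survivin, the partner of Aurkb in the chromosomal passenger complex, had 20 and 16 for BASC, 2 and 0 for AT2 and 3 and 0 for Club cells, and was not called (limma adjusted p = 0.293 and 0.157). None of the 5 spindle, kinetochore and chromosome genes was called, and the replicates of a population often stood far apart. Top2a, the topoisomerase that untangles chromosomes, had 32 and 71 for BASC, 0 and 62 for AT2 and 98 and 40 for Club cells. Kif11, the motor that separates spindle poles, had the highest mean of these genes, with 39 and 80 for BASC, 0 and 156 for AT2 and 22 and 66 for Club cells. Cenpf was at 0 and 118 for BASC, and Tpx2 at 0 and 85 there, while Ccnb1 was at 20 and 0. Each BASC library thus held genes of mitosis that were not seen in the other. In BASC, 9 of the 15 mitotic members were higher in replicate 2 and 4 in replicate 1. Replicate 1 had fewer estimated reads (10121129 against 14716169). Top2a and Kif11 were called lower in AT2 than in Club cells only in the fit without AT2 replicate 2. That fit kept 1 AT2 library, replicate 1, in which both genes were at 0. Tpx2 was called lower in AT2 than in Club cells in the fits without either BASC library. Of the 15 mitotic members, 9 and 11 reached 10 in the BASC libraries, 6 and 5 for AT2, and 11 and 9 for Club cells.

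Other genes of the same pathways were read from 3 lists with 185 genes, of which 177 had a row and 158 were tested. Limma called none of them between BASC and AT2, with 7 higher and 11 lower at an unadjusted p under 0.05, or 11.4% against 13.2% of all genes. Between BASC and Club cells 6 were higher and 1 lower, 4.43% against 11.2% of all genes. Between AT2 and Club cells 8 were higher and 6 lower, 8.86% against 18.1%. Of the 60 replication and S phase genes tested, 2 were called, both higher in AT2 than in Club cells (3.33% against 18.1% of all genes). Mcm10, which loads onto the helicase, had 262 and 205 for AT2, 43 and 147 for BASC and 40 and 16 for Club cells (limma adjusted p = 0.0302). Orc2, of the origin recognition complex, had 383 and 267, 150 and 162, and 116 and 106 in the same order (adjusted p = 0.0245).

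Of 50 other mitosis genes, limma called 3 higher and 1 lower in BASC against Club cells (8.0% against 11.2% of all genes), and 4 higher and 3 lower in AT2 against Club cells (14.0% against 18.1%). Stmn1, which destabilises microtubules, had 675 and 578 for BASC, 613 and 771 for AT2 and 126 and 128 for Club cells. Its level was 4.93-fold higher in BASC (limma adjusted p = 0.00136) and 5.45-fold higher in AT2 (adjusted p = 0.000620) than in Club cells. The phosphatase gene Cdc25b, which activates CDKs, was 2.59-fold and 2.24-fold higher, and the histone chaperone gene Anp32e 2.20-fold and 2.10-fold higher. Prc1, a bundler of the central spindle, was 5.70-fold higher in AT2 than in Club cells. The ciliated cell markers, whose sums are given beside Plk1, were also highest in Club cells, and their part in the differences that follow was not tested. Nek2, a centrosome kinase, was listed at 0 in both AT2 libraries, at 8 and 33 for BASC and at 178 and 98 for Club cells, at least 50.2-fold higher in Club cells than in AT2 against a floor of 3 reads per library (adjusted p = 0.00542). Hjurp, the chaperone of the centromeric histone, was 2.33-fold higher in Club cells than in AT2.

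Of 48 other G1, checkpoint and pocket protein complex genes, 3 exceeded Club cells in BASC (6.25% against 11.2% of all genes), and 2 were higher and 3 lower in AT2 than in Club cells (10.4% against 18.1%). Ccng2, an atypical cyclin linked to arrest, had 707 and 694 for BASC, 532 and 343 for AT2 and 164 and 261 for Club cells (BASC against Club, limma adjusted p = 0.0153). Gadd45g, a stress-response gene of growth arrest, was 2.11-fold higher in BASC and 2.04-fold higher in AT2 than in Club cells, and Gadd45a 2.57-fold higher in AT2. The checkpoint kinase gene Atm was 1.83-fold higher in BASC. Mnat1, of the CDK-activating kinase, was 3.94-fold and Ccng1, a p53 target, 1.79-fold higher in Club cells than in AT2. Of the 7 and 14 calls in these lists, only that of Stmn1 was kept in every fit that left out 1 library. Between BASC and Club cells 6 calls were lost without either BASC library, 4 without Club replicate 1 and 3 without Club replicate 2. Between AT2 and Club cells 10 were lost without either AT2 library and 9 without either Club library.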

How the data were processed

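RNA-seq values of 6 libraries were taken from 1 deposited table. The submitters' processing notes name FastQC, STAR 2.4.0a as aligner, featureCounts 1.4.5-p1 (Subread) as counter and the mm10 (GRCm38) build. How counts were normalised, whether strand was used and which annotation served is stated by no source used here. As to units, the authors deposited 1 normalised signal value per gene and library, read here as gene counts scaled by 1 factor per library and rounded, since low whole numbers were missing or doubled at regular intervals. These intervals gave the value of 1 read, between 0.764 and 1.34, and hence estimated reads. Where 1 read was worth under 1 unit, reads could not be recovered exactly, so no count model was run.

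The scale was log2(value + 1). The 17721 genes that reached 10 in 2 or more libraries were fitted by population in limma 3.58.1 under R 4.3.3. The fit used eBayes with trend (3 residual and 4.2 prior degrees of freedom), 2-sided, with Benjamini-Hochberg adjustment over all genes. The script was tested on simulated data. Depending on the comparison, it recovered 27.8% to 29.2% of 2-fold changes and 40.2% to 43.9% of 4-fold changes, so most such changes were missed. Fold changes are ratios of group means. Exon lengths came from GENCODE M21, where 99.8% of the gene identifiers were found. Per-library values are given for members called in any comparison, the highest member of each role and the usual proliferation markers; from the other pathway lists, up to 4 called genes per list and comparison, if the higher group averaged 100 or more and the libraries did not overlap. Other members or genes given in full were chosen after their values were seen. The members and lists were chosen with earlier results of these data known. Alternatives were 10 other settings and the omission of each library.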

Additional observations from a re-analysis of the deposited data

How the results depend on the processing

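No called member or pathway gene changed direction in any alternative. Members called higher in BASC than in AT2 numbered 1, against 0, in a fit without a mean trend. Members higher in BASC than in Club cells, 2 in the fit reported, numbered 1 with a pseudocount of 0.5 and with only the 2 groups fitted, 4 under quantile normalization, and 1 to 2 when 1 library was left out. Members lower in BASC than in Club cells, 1 in the fit reported, numbered 2 with a pseudocount of 5, with at least 50 in at least 2 samples, with protein-coding genes only and with only the 2 groups fitted, and 1 to 2 when 1 library was left out. Members higher in AT2 than in Club cells, 4 in the fit reported, numbered 2 with only the 2 groups fitted and 2 to 4 when 1 library was left out, and members lower, 3 in the fit reported, numbered 1 to 4. The cause was not tested; fits without a library hold fewer samples, and the lone sample left is assumed to vary like the other groups. Replicate differences correlated between populations by only 0.006 to 0.012 (0.057 to 0.092 in genes with a mean of at least 100), so the numbers were not taken to pair libraries. With a replicate block, 3 members were called between BASC and Club cells and 7 between AT2 and Club cells, as without it; among members it ended only the call of Ccnd3 (adjusted p = 0.0522) and added Ccnd2. Rescaling moved the median log2 difference of all genes between AT2 and Club cells from -0.10 to -0.22 and quantile normalization moved it to 0.03. Over all genes, calls ranged across the alternatives from 3 to 204 higher and 0 to 61 lower in BASC against AT2 (98 and 14 in the fit reported), from 480 to 1154 and 196 to 1147 in BASC against Club cells (1022 and 961), and from 849 to 1656 and 574 to 2012 in AT2 against Club cells (1492 and 1720). Genes with few reads carry wide errors, and a member that was not called may still differ.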
